A study of Mus musculus with 6 samples.

Results

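The genes described here encode the matrix metalloproteinases (MMPs), the ADAMTS proteases, the ADAMTS-like (ADAMTSL) proteins and the tissue inhibitors of metalloproteinases (TIMPs). They were taken by gene symbol alone, as 51 of the 24951 genes in the deposited table: 23 Mmp, 19 Adamts, 5 Adamtsl and 4 Timp genes. Their RNA was measured by sequencing in lung cells of mouse pups at postnatal day 5 that had been pulled down with beads carrying an antibody to CD31, an endothelial surface protein. The 3 mutant libraries came from Smad4 f/f;Cdh5-CreERT2 pups, in which a tamoxifen-inducible Cre driven by an endothelial cadherin promoter deletes floxed Smad4, and the 3 control libraries from Smad4 f/f pups. All pups thus carried the floxed alleles, and no group had Cre with intact Smad4. The labels call the controls wildtype, give no dose or day of tamoxifen, and in a sentence on the libraries name the mice HHTf/f and HHTiECKO without explaining it. That sentence describes the samples as biologically independent. The headers of the counts give every library the same tag, lit14, without saying what it means.

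MMPs and ADAMTS proteases are zinc enzymes that cut the extracellular matrix. MMPs cleave collagens, gelatin, laminins and surface proteins, and each is made with a prodomain that keeps it inactive. ADAMTS proteases carry thrombospondin repeats and have narrower substrates, among them proteoglycans, procollagens and von Willebrand factor (VWF). ADAMTSL proteins share the repeats without the protease domain and bind fibrillin microfibrils, which hold latent TGF-beta in the matrix. TIMPs bind the active site of MMPs and block it. SMAD4 is the partner shared by the SMADs of the BMP and TGF-beta pathways, and TGF-beta is a textbook regulator of several of these genes.

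Reads assigned to genes came to between 14093564 and 21113926 per library. Values of single libraries are given in the order of replicates 1, 2 and 3 in each group, and CPM are reads scaled by library size and TMM factors. Smad4 itself stood at 188, 177 and 181 CPM in the controls and 88.8, 72.9 and 94.2 CPM in the mutants, and no mutant library overlapped the controls. The 8 endothelial markers looked up, Pecam1, Cdh5, Kdr, Tek, Erg, Emcn, Cldn5 and Vwf, had reads in every library and summed to between 7991 and 9036 CPM. Among them Tek, the angiopoietin receptor, was lower in the mutants (log2 fold change -0.50, edgeR adjusted p = 0.0128). The 10 fibroblast markers were also all present, with a summed level of 1893 to 2485 CPM in controls and 1936 to 2729 CPM in mutants, lowest in replicate 3 of each group. The 10 alveolar and airway epithelial markers summed to 2210 to 4080 CPM in controls and 2885 to 3279 CPM in mutants. The 10 macrophage and monocyte markers summed to 881 to 1078 CPM in controls and 863 to 981 CPM in mutants. By Xist and the Y-linked Ddx3y, replicate 1 of each group was male and the other 4 libraries were female.

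Most of this protease and inhibitor set stood at like levels in both groups, and the 2 members that passed the test were both lower in the mutants. Adamts13, the protease that cuts VWF, was 5.11-fold lower, and Adamtsl2, a microfibril-binding ADAMTS-like gene, was 1.58-fold lower. Of the 51 members, 48 had at least 1 read, and 41 passed the filter on low counts and were tested. The adjusted p was under 0.05 (edgeR quasi-likelihood test, Benjamini-Hochberg over all 14934 tested genes) for 0 higher and 2 lower members, 4.88% of those tested. Over all tested genes 3.27% were called, 1.93% higher and 1.34% lower, so the share among the members is near the background. Limma-voom called the same 2 members, where it called 2.96% of all genes. DESeq2 called 4 members, the same 2 together with Mmp28 and Adamts17 as higher, where its background was 4.85%. At an unadjusted p under 0.05 there were 9 of 41 members, 22.0%, against 14.0% of all tested genes. The median log2 fold change of the tested members was 0.011, with 21 above and 20 below 0, and that of all tested genes was -0.0024. Of the 41, 35 lay within 1.5-fold either way, or 85.4%, against 92.7% of all tested genes. The plot of changes by family shows this spread.

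**Figure D1:**
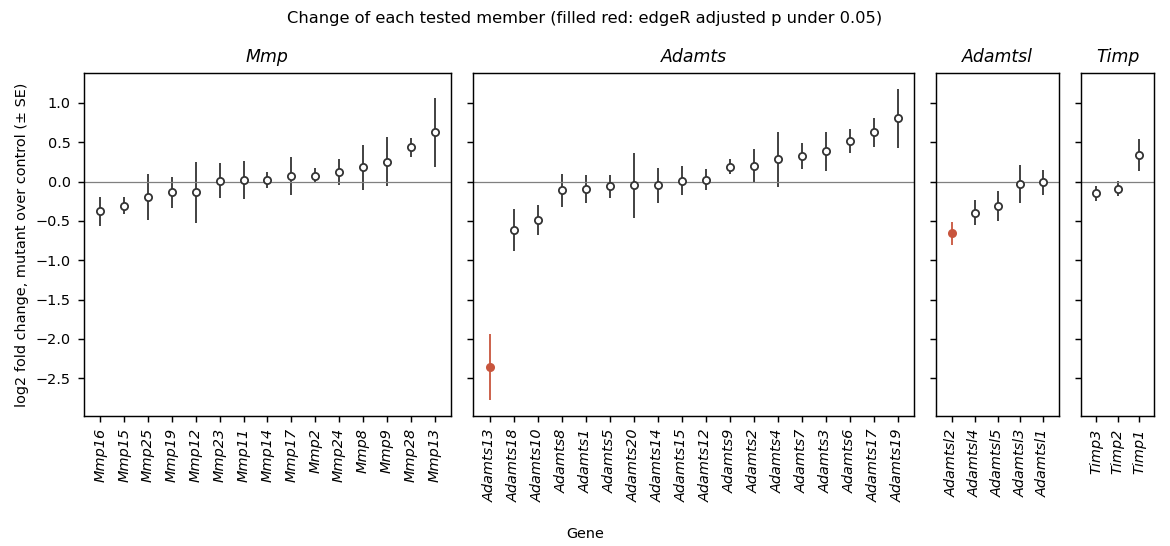
The log2 fold change of mutant over control is plotted for each of the 41 tested members, with its SE, in a panel for each family and ordered by size. Filled red points, Adamts13 at -2.35 and Adamtsl2 at -0.66, passed edgeR's test at an adjusted p under 0.05, and the open points did not.

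Adamts13 (ENSMUSG00000014852.16) is on the plus strand of chromosome 2 of GRCm38, from 26973416 to 27009628. It was a low gene, with 26, 20 and 23 reads in the controls and 2, 4 and 7 reads in the mutants. These are 1.21, 1.42 and 1.11 CPM in the controls and 0.110, 0.251 and 0.341 CPM in the mutants. Every mutant library was below every control library, and the gap between the groups was wider than the range within either. The means were 1.25 ± 0.161 and 0.234 ± 0.117 CPM (SD, n = 3 each), a change of -2.35 on the log2 scale (SE 0.42, adjusted p = 0.0137). In bulk libraries, fewer cells that make a transcript and less transcript per cell cannot be told apart.

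The summed reads were 69 in controls, with an exact 95% Poisson interval of 53.7 to 87.3, and 13 in mutants, with 6.92 to 22.2, which cover counting error only. Mutant replicate 1, with 2 reads, lay under the floor of 3 reads. The call ended without control replicate 2 (adjusted p = 0.0524), mutant replicate 1 (0.0510) or mutant replicate 2 (0.0833), with a log2 fold change between -2.76 and -2.02 in all fits tried. Vwf, the substrate of this protease, stood at 1469, 1297 and 1517 CPM in the controls and at 1326, 1570 and 1561 CPM in the mutants (adjusted p = 0.840), and the groups overlapped.

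Adamtsl2 (ENSMUSG00000036040.14) is on the same chromosome and strand, from 27079379 to 27108981. It stood at 32.1, 29.0 and 41.2 CPM in the controls and at 20.2, 20.8 and 23.9 CPM in the mutants. Each mutant library was again below each control library. The means were 34.1 ± 6.33 and 21.6 ± 1.95 CPM (SD, n = 3 each), a change of -0.66 on the log2 scale (SE 0.14, adjusted p = 0.0357). The call ended without control replicate 3, its highest library (log2 fold change -0.50, adjusted p = 0.0976), and without mutant replicate 1, 2 or 3 (adjusted p = 0.121, 0.182 and 0.0513). Control replicate 3, where Adamtsl2 was highest, had the lowest summed level of fibroblast markers among the 6 libraries. The same library was lowest for the alveolar and airway epithelial markers. The part of such cells in the Adamtsl2 values was not tested.

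The start sites of the 2 genes that fell lie 106.0 kb apart, with 69.8 kb between the end of Adamts13 and the start of Adamtsl2. The neighbouring genes were looked up after this was seen. Between them the table holds 3 genes, Cacfd1, Slc2a6 and Mymk. Cacfd1 averaged 21.3 ± 2.49 CPM in controls and 18.7 ± 1.95 CPM in mutants (SD, n = 3 each; adjusted p = 0.597), and Slc2a6, a glucose transporter family gene, at 1.96 ± 0.835 and 2.25 ± 0.308 CPM (SD, n = 3 each; adjusted p = 0.818). Mymk, which encodes a fusion protein of muscle cells, had 1 read in all. Of the 17 other genes within 200 kb on either side, 11 were tested and 0 were called by edgeR, with log2 fold changes between -0.19 and 0.23. At an unadjusted p under 0.05 there was 1 of the 11, and DESeq2 and limma-voom each called 0. Over all tested genes edgeR called 3.27%, and 14.0% had an unadjusted p under 0.05. With 11 genes, counts this low do not set the window apart from other genes.

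**Figure D2:**
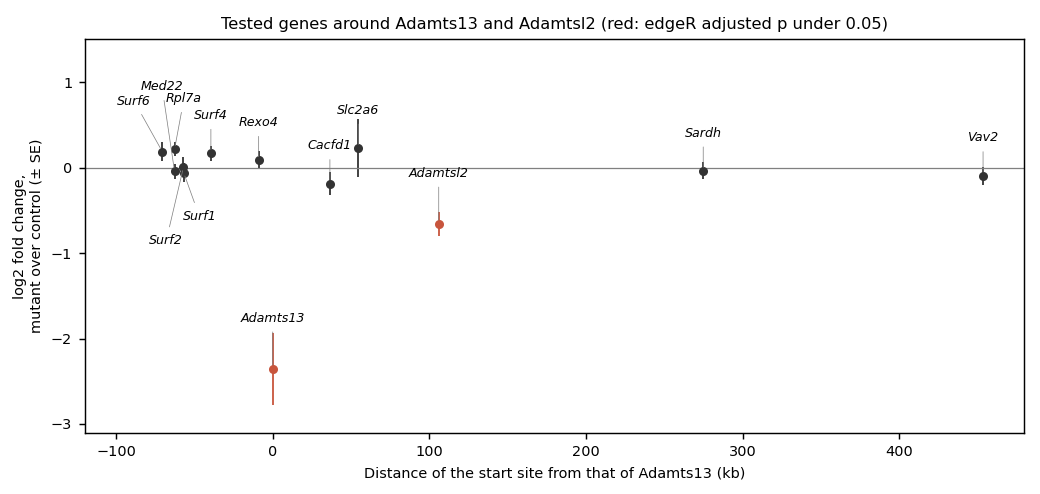
The log2 fold change of mutant over control, with its SE, is plotted for the 13 tested genes around Adamts13 and Adamtsl2 against the distance of each start site from that of Adamts13 in kb. The red points, Adamts13 and Adamtsl2, lie below 0, while the 11 others lie between -0.19 and 0.23.

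The stretches just before the start sites are printed because these 2 members were the ones called, each lower in the mutants. They are the 250 bases upstream of each start in RefSeq's annotation of GRCm38.p6, plus strand, in the direction of transcription. Capitals mark GTCT on either strand (AGAC on the printed strand), the core that SMAD proteins can bind. The first is chr2:26973166-26973415 and the second chr2:27079129-27079378.
Adamts13: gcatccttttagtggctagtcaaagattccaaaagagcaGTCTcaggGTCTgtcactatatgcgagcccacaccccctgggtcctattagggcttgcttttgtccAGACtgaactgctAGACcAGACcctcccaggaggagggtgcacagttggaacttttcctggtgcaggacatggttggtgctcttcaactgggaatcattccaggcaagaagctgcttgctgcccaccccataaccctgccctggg
Adamtsl2: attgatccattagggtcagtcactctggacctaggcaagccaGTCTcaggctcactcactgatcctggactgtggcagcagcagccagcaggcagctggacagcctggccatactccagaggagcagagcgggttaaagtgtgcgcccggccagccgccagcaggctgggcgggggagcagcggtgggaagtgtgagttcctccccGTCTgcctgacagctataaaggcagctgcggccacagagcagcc

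Before Adamts13 there were 5 matches to GTCT and before Adamtsl2 there were 2. Of 32851 promoter windows of the same length, 82.9% held at least 1 match, 4.68% held at least 5 and 54.9% at least 2. The palindrome GTCTAGAC, which contains GTCT on both strands, had 0 matches in either window and was in 0.167% of all windows. GGCGCC, a GC-rich SMAD site, and TGANTCA, the AP-1 site known from MMP promoters, also had 0 matches, against 9.59% and 6.75% of all windows. These matches are letters in a window, and no binding was measured.

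Among the members, the highest level per kilobase of exon was that of Adamts1, which cuts the proteoglycans versican and aggrecan, with 233 CPM per kilobase on average. Timp2 followed with 87.1, Timp3 with 84.9, Mmp14 with 68.5, Mmp2 with 45.0 and Mmp15 with 38.7 CPM per kilobase. Timp2 and Timp3 overlapped in their range over the 6 libraries, 78.6 to 98.6 and 71.6 to 93.6 CPM per kilobase, while Adamts1, at 180 to 296, stood clear of both. The 4 highest members together made up 66.4% to 72.0% of the summed level per kilobase of all 51. Lengths were those of all exons annotated for a gene, so a gene with long rare isoforms is understated.

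**Figure D3:**
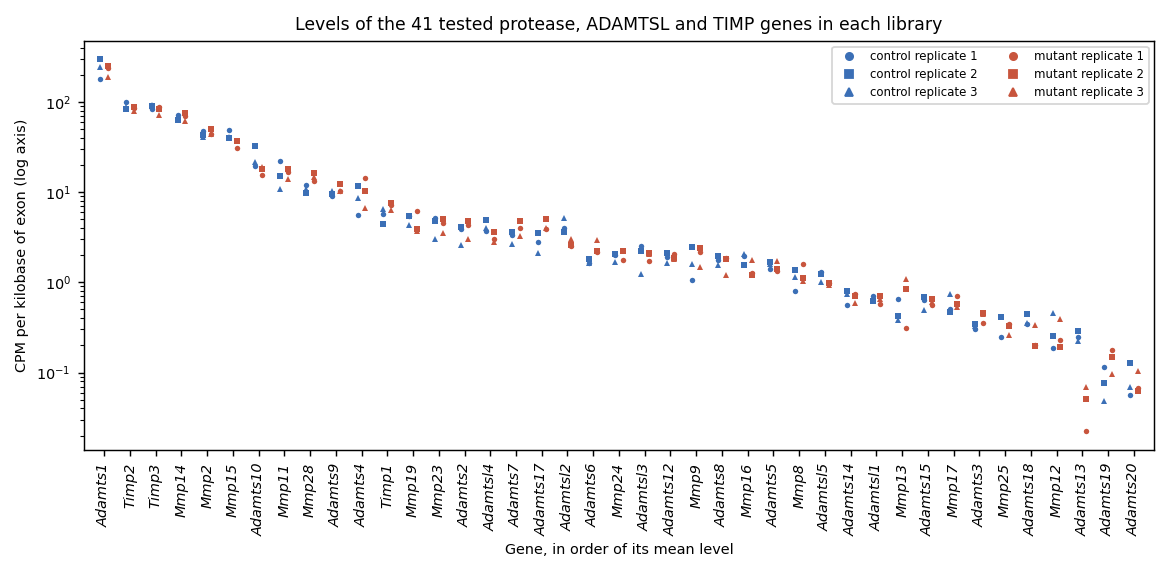
The level of each of the 41 tested members is plotted as CPM per kilobase of exon on a log axis, with the 3 control libraries in blue and the 3 mutant libraries in red, in order of the mean. Adamts1 stands highest, at 180 to 296 CPM per kilobase, and Adamts13 is the low gene whose red points lie apart below its blue points.

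The 7 ADAMTS proteases that cut proteoglycans were all tested, and 0 were called by edgeR, by DESeq2 or by limma-voom, with 0 at an unadjusted p under 0.05. Their log2 fold changes lay between -0.11 and 0.28. Adamts1 stood at 952, 1572 and 1302 CPM in the controls and at 1263, 1312 and 1013 CPM in the mutant libraries. The control range held all 3 mutant values (log2 fold change -0.093, SE 0.18, adjusted p = 0.869). Adamts4, an aggrecan-cleaving relative, stood at 26.7, 55.8 and 41.3 CPM in the controls and 69.1, 49.0 and 31.9 CPM in the mutants, which also overlapped (adjusted p = 0.780). Among the controls, both were lowest in replicate 1 and highest in replicate 2, and among the mutants both were lowest in replicate 3. After this was seen, 4 early response genes were looked up. Atf3 had 219, 437 and 310 CPM in the controls and 386, 369 and 271 CPM in the mutants, lowest in the same libraries of each group. Fos, Jun and Egr1 were instead lowest in replicate 3 among the controls, at 709, 975 and 598 CPM. All 4 were highest in control replicate 2 among the controls and lowest in replicate 3 among the mutants, and their part in the Adamts1 and Adamts4 values was not tested.

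Adamts9, which is needed for vascular and ciliary development, was the next most abundant of this class. It had 136, 145 and 154 CPM in the controls and 156, 185 and 156 CPM in the mutants, so that all mutants were above all controls by a small margin (log2 fold change 0.19, SE 0.095, adjusted p = 0.414). Adamts5, Adamts8, Adamts15 and Adamts20 had adjusted p values between 0.851 and 0.983. Of the 3 ADAMTS enzymes that trim procollagens, Adamts2 stood at 33.1 ± 7.54 and 37.9 ± 8.71 CPM in controls and mutants (SD, n = 3 each). Adamts3, which also activates the lymphatic growth factor VEGF-C, stood at 1.76 ± 0.112 and 2.29 ± 0.322 CPM (SD, n = 3 each), without overlap (adjusted p = 0.539). Adamts14 differed by -0.045 on the log2 scale (adjusted p = 0.952).

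The remaining ADAMTS genes held 4 of the 7 members that had an unadjusted p under 0.05 without passing the adjustment. Adamts17, whose human counterpart is mutated in a short-stature syndrome with lens defects, stood at 21.9, 27.2 and 16.4 CPM in the controls and 30.4, 39.2 and 31.2 CPM in the mutants. All mutant libraries were above all controls. The change was 0.63 on the log2 scale (SE 0.18, adjusted p = 0.129), and DESeq2 called it (adjusted p = 0.0203). Adamts6, linked to mitral valve development, had 12.8, 14.2 and 12.9 CPM in the controls and 16.8, 17.3 and 23.0 CPM in the mutant libraries. The controls lay close together and mutant replicate 3 stood highest (log2 fold change 0.52, SE 0.15, adjusted p = 0.120).

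Adamts10, which binds fibrillin microfibrils, pointed the other way. It had 162, 270 and 178 CPM in the controls and 128, 150.0 and 156 CPM in the mutants, with control replicate 2 far above the rest (log2 fold change -0.49, SE 0.19, adjusted p = 0.290). Without control replicate 2 the log2 fold change was -0.23 (adjusted p = 0.448). Adamts18 had 3.50, 4.49 and 3.62 CPM in the controls and 2.03, 2.01 and 3.41 CPM in the mutants. Mutant replicate 3 came close to the controls (log2 fold change -0.62, SE 0.27, adjusted p = 0.334). Adamts19 had the highest log2 fold change of the tested members, 0.80, at 1.13 ± 0.482 and 1.99 ± 0.584 CPM (SD, n = 3 each). Its groups overlapped and its SE was 0.38 (adjusted p = 0.380). The COMP-cleaving Adamts7 and Adamts12 stood at 20.1 and 25.3 CPM and at 20.5 and 20.8 CPM on average in controls and mutants (adjusted p = 0.419 and 0.959). Adamts16 had 8 reads over the 6 libraries and was not tested.

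All 5 ADAMTSL genes were tested, and all 5 had a log2 fold change below 0, as had 7535 of all 14934 tested genes. They ranged from -0.66 for Adamtsl2 to -0.0064 for Adamtsl1, and Adamtsl1 and Adamtsl3 lay near 0. Adamtsl2 was the member that passed the test. Adamtsl4, which is tied to the fibrillin fibres that hold the lens, had 15.4, 20.6 and 16.6 CPM in the controls and 12.7, 15.3 and 11.9 CPM in the mutants. Mutant replicate 2 lay just under control replicate 1 (log2 fold change -0.40, SE 0.16, adjusted p = 0.282). Adamtsl5 stood at 5.63 ± 0.756 and 4.53 ± 0.120 CPM (SD, n = 3 each), also without overlap (adjusted p = 0.506). Adamtsl3 went from 19.6 and 17.4 CPM in control replicates 1 and 2 to 9.60 CPM in control replicate 3, a range that held its mutant values of 13.4, 16.2 and 15.9 CPM. Its log2 fold change of -0.033 changed sign in 5 of the 13 alternative fits. Summed per kilobase over the 5 genes, the level was 12.2, 12.6 and 12.0 in control and 8.84, 10.0 and 9.44 CPM per kilobase in mutant replicates 1, 2 and 3. The highest mutant sum was below the lowest control sum. This sum includes Adamtsl2, which averaged 4.27 and 2.71 CPM per kilobase in controls and mutants, where the sum averaged 12.3 and 9.43. It is therefore not separate from the Adamtsl2 call.

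**Figure D4:**
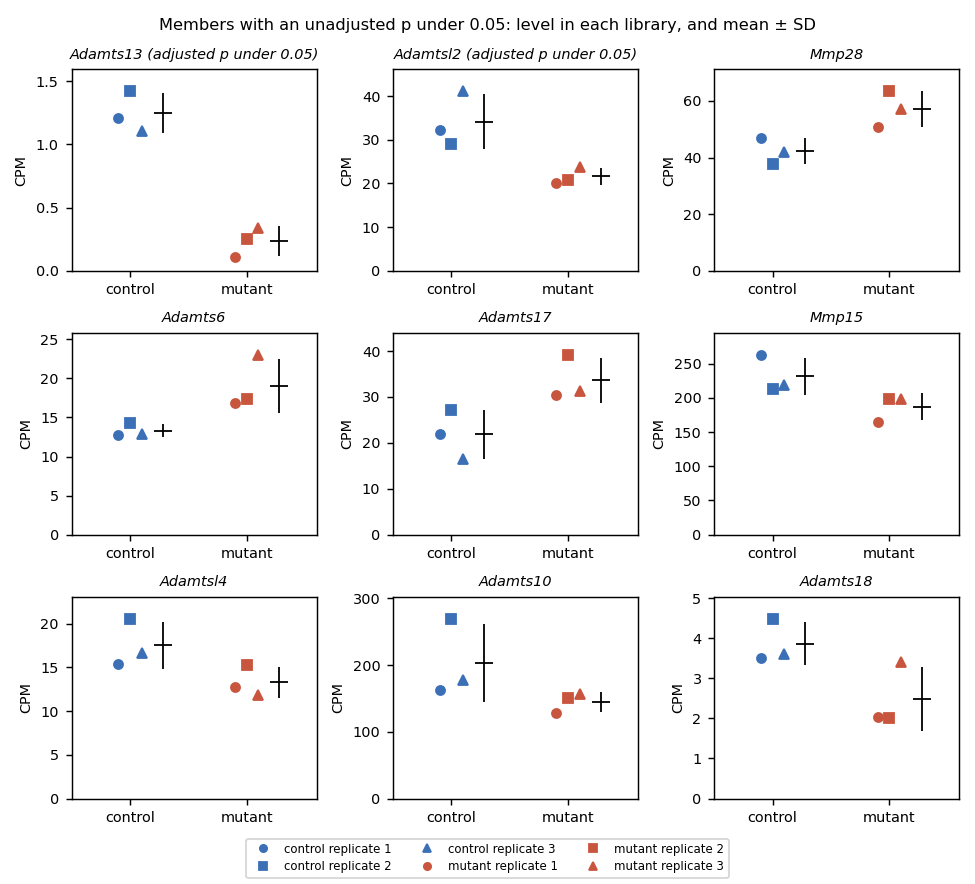
The CPM in each library is plotted for the 9 members with an unadjusted p under 0.05, controls in blue and mutants in red with a symbol for each replicate, and bars beside them for the mean ± SD (n = 3 each). The axes start at 0, and in all 9 panels the groups do not overlap, with the widest relative gap for Adamts13.

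Across the 41 tested members the 2 groups of libraries did not overlap in 12, or 29.3%, where 20.6% of all tested genes did not overlap. Of these, 7 were lower in the mutants, namely Adamts13, Adamtsl2, Adamts18, Adamts10, Adamtsl4, Adamtsl5 and Mmp15. The 5 that were higher were Adamts17, Adamts6, Mmp28, Adamts3 and Adamts9. The 12 were 7 of the 18 tested ADAMTS genes, 3 of the 5 ADAMTSL genes, 2 of the 15 MMPs and 0 of the 3 TIMPs. These shares were not compared with the background by a test.

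Of the 23 MMP genes, 20 had at least 1 read, 15 were tested and 0 were called by edgeR. Their log2 fold changes lay between -0.38 and 0.62, with a median of 0.019. At an unadjusted p under 0.05 there were 2 of them, Mmp28 and Mmp15, or 13.3%, near the 14.0% of all tested genes. Over all tested genes edgeR called 3.27%. DESeq2 called Mmp28 (adjusted p = 0.0376), and limma-voom called 0.

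The membrane-bound MMPs, which cut matrix at the cell surface, held the most abundant MMP, Mmp14, an activator of Mmp2. Mmp14 had 431, 372 and 413 CPM in the controls and 415, 453 and 365 CPM in the mutant libraries. The groups overlapped (log2 fold change 0.019, SE 0.10, adjusted p = 0.954). Mmp15, its close relative, had 263, 213 and 218 CPM in the controls and 165, 198 and 198 CPM in the mutants. All mutants were below all controls, the nearest by a small margin (log2 fold change -0.31, SE 0.11, adjusted p = 0.222, and -0.20 without control replicate 1). Mmp16 stood at 16.1 ± 2.38 and 12.3 ± 2.76 CPM (SD, n = 3 each; adjusted p = 0.396). Mmp17, Mmp23, Mmp24 and Mmp25 had log2 fold changes between -0.20 and 0.12.

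Of the gelatinases, which cut denatured collagen and basement membrane collagen, Mmp2 had 160, 146 and 136 CPM in the controls and 149, 169 and 150 CPM in the mutants (log2 fold change 0.077, SE 0.092, adjusted p = 0.769). Mmp9, a product of neutrophils and other cells, was far lower, at 3.73, 8.76 and 5.59 CPM in the controls and 7.74, 8.41 and 5.17 CPM in the mutants. Mmp8, the neutrophil collagenase, had 1.96, 3.35 and 2.75 CPM in the controls and 3.84, 2.70 and 2.49 CPM in the mutants. Both were lowest in control replicate 1. The summed level of 10 neutrophil markers was also lowest there, with 63.7, 139 and 90.5 CPM in the controls and 140, 104 and 94.3 CPM in the mutants, and its part in the Mmp8 and Mmp9 values was not tested. Neither gene passed the test (adjusted p = 0.774 for Mmp9 and 0.828 for Mmp8). Of the 10 neutrophil markers, all had reads, 8 were tested and 0 were called by edgeR, DESeq2 or limma-voom, with 0 at an unadjusted p under 0.05.

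Mmp28, or epilysin, had 47.0, 37.9 and 41.9 CPM in the controls and 50.9, 63.5 and 57.2 CPM in the mutants. All mutants were above all controls (log2 fold change 0.44, SE 0.12, adjusted p = 0.0889). Its annotated exons share 466 bases with 1700020L24Rik on the other strand, and the use of strand in the counting is not given. Mmp11, a stromelysin made in stroma, had 60.8, 41.9 and 30.2 CPM in the controls and 46.1, 50.2 and 38.5 CPM in the mutants. Mmp11, Mmp23, Adamts2 and Adamtsl3, named after their values were seen, each had their lowest value in control replicate 3. So did Mmp2, Mmp24, Adamts7, Adamts12, Adamts15, Adamts17 and Adamts19, and the other tested members were lowest elsewhere. Of the 10 marker lists, 4 also had their lowest sum in control replicate 3: fibroblast at 1893 CPM, smooth muscle and pericyte at 280.0, alveolar and airway epithelial at 2210 and mesothelial at 77.1 CPM. The part of these cells in the values of these genes was not tested. The log2 fold change of Adamts17 was 0.46 without control replicate 3 and 0.81 without control replicate 2. Mmp12, the macrophage elastase, and Mmp13, a collagenase, stood at 2.16 ± 1.000 and 1.95 ± 0.771 CPM and at 1.29 ± 0.381 and 2.00 ± 1.07 CPM (SD, n = 3 each), with overlap in both.

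On chromosome 9, 10 MMP genes lie side by side from 7272514 to 7699585, a span of 427 kb: Mmp13, Mmp12, Mmp1b, Mmp3, Mmp1a, Mmp10, Mmp8, Mmp27, Mmp20 and Mmp7. Of these 3 were tested, Mmp13, Mmp12 and Mmp8, and none of the 3 exceeded 4 CPM in any library. Mmp1a, Mmp20 and Mmp7 had 0 reads in all 6 libraries, where the floor of 3 reads allows up to 0.140 to 0.214 CPM per library. Mmp1b, Mmp3, Mmp10 and Mmp27 had 2, 3, 10 and 6 reads in all. Outside the cluster, Mmp21 had 15 reads in all and was not tested.

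Of the 4 inhibitors 3 were tested and 0 were called by edgeR, by DESeq2 or by limma-voom, with 0 at an unadjusted p under 0.05. Timp3, which is bound to the matrix and also blocks ADAM and ADAMTS enzymes, had 684, 736 and 762 CPM in the controls and 708, 677 and 583 CPM in the mutants. Mutant replicate 1 lay within the control range and mutant replicates 2 and 3 below it (log2 fold change -0.15, SE 0.095, adjusted p = 0.535). Its exons share 1733 bases with Syn3 on the other strand. Timp2, which takes part in the activation of Mmp2 by Mmp14, had 384, 321 and 345 CPM in the controls and 337, 344 and 306 CPM in the mutants (log2 fold change -0.090, SE 0.093, adjusted p = 0.723). Timp1, the inducible soluble inhibitor, had 5.04, 3.92 and 5.79 CPM in the controls and 6.37, 6.78 and 5.61 CPM in the mutants. Mutant replicate 3 fell inside the control range (log2 fold change 0.34, SE 0.20, adjusted p = 0.504, and 0.21 without control replicate 2). Timp4 had 48 reads in all and was not tested.

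The summed level of all MMPs per kilobase, divided by that of all TIMPs, was 1.17, 1.07 and 1.00 in control and 1.07, 1.20 and 1.20 in mutant replicates 1, 2 and 3. The means were 1.08 ± 0.0884 and 1.16 ± 0.0746 (SD, n = 3 each), and the groups overlapped. This is a ratio of transcript levels, and protease activity was not measured.

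Genes of the same proteolytic network that are not in these families were described from lists of 79 genes, of which 71 were tested. Of these, 1 rose and 2 fell, or 4.23%, against the 3.27% called over all tested genes. Adam12, a membrane-anchored metalloproteinase of the neighbouring ADAM family, rose from 81.6, 88.8 and 92.9 CPM in control to 175, 167 and 146 CPM in the mutant libraries. The change was 0.89 on the log2 scale (SE 0.096, adjusted p = 0.00101), and the groups stood well apart. Adam23, an ADAM without protease activity, fell from 49.4, 38.6 and 34.3 CPM to 16.9, 11.2 and 17.7 CPM (log2 fold change -1.41, SE 0.19, adjusted p = 0.00491). The other 12 ADAM-list genes, with the sheddases Adam10 and Adam17 among them, were not called. At an unadjusted p under 0.05 were 4 of the 14, against 14.0% of all tested genes. Besides Adam12 and Adam23 these were Adam15 and Adam22, both lower in the mutants without overlap. Adam15 averaged 336 and 265 CPM in controls and mutants, and Adam22 7.06 and 4.98 CPM (edgeR adjusted p = 0.149 and 0.291).

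Pcsk5, a proprotein convertase that can activate secreted precursors, was the call among the 15 tested inhibitors and regulators. It fell from 219 ± 22.4 to 93.2 ± 10.1 CPM (SD, n = 3 each), a log2 fold change of -1.23 (adjusted p = 0.000505). Reck, a membrane-anchored inhibitor of MMPs, stood at 37.8 ± 3.31 and 40.5 ± 1.14 CPM (SD, n = 3 each; adjusted p = 0.711). Of the 11 tested genes of the plasminogen system, which can activate pro-MMPs, 0 were called by edgeR or limma-voom. An unadjusted p under 0.05 was found for 4 of the 11, against 14.0% of all tested genes. DESeq2 called 2, Plat and Plau. These plasminogen activator genes stood as follows: Plat at 183 ± 34.0 and 303 ± 60.4 CPM, and Plau at 38.0 ± 10.3 and 63.8 ± 9.25 CPM (SD, n = 3 each; adjusted p = 0.0833 and 0.105). In both, all mutant libraries were above all controls.

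Of 20 tested substrates and partners of ADAMTS and ADAMTSL proteins, 0 were called by edgeR, DESeq2 or limma-voom, with a median log2 fold change of 0.060. An unadjusted p under 0.05 was found for 6 of the 20, against 14.0% of all tested genes. Of the 6, Nid1 and Fbln1 were higher in the mutants, and Ltbp4, Fbn1, Bcan and Eln were lower. Nid1 had the smallest p, at 766 ± 66.3 CPM in controls and 948 ± 26.2 CPM in mutants (SD, n = 3 each, edgeR adjusted p = 0.102). Ltbp4, a latent TGF-beta binding protein, followed at 606 ± 79.4 and 478 ± 37.7 CPM (adjusted p = 0.161). Fbn1, the main fibrillin of microfibrils, stood at 333 ± 12.0 and 275 ± 26.0 CPM (adjusted p = 0.169). Ltbp1, a relative of Ltbp4, stood at 159.8 ± 17.9 and 183 ± 17.9 CPM (adjusted p = 0.457). Versican, Vcan, stood at 52.0 ± 5.95 and 51.2 ± 11.1 CPM (SD, n = 3 each; adjusted p = 0.963). Of 11 tested astacin proteases, cathepsins and other matrix proteases, 0 were called by edgeR, DESeq2 or limma-voom, with 0 at an unadjusted p under 0.05.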

How the data were processed

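RNA of 3 control and 3 mutant libraries was analysed. The authors deposited raw read counts per gene symbol, as whole numbers, in a table of the series and per library, and 0 values differed between these forms. Per the submitters' processing notes the build was mm10 and DESeq2 was used, with no version or role given. For the aligner, counter, annotation and use of strand, the entry is: not given in the sources used here. Reads with no feature (53.9% to 58.2% of a library) and ambiguous reads (0.288% to 0.366%) were left out.

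Counts were fitted in R 4.3.3 with edgeR 4.0.16 (filterByExpr, TMM, robust quasi-likelihood F test, two-sided, mutant against control, no covariate), with Benjamini-Hochberg adjustment over 14934 genes and a threshold of 0.05. SE is the log2 fold change divided by the square root of F. Alternatives were DESeq2 1.42.0, limma-voom (limma 3.58.1), 2 other scalings, no filter, a sex covariate, the replicate number as a block, and each library left out. The fits were tested on simulated counts. There edgeR recovered 35.8% of 1.5-fold, 83.3% of 2-fold and 100% of 4-fold changes, with 17 false calls among 14834 genes. Only a small part of these genes had been changed, so the 17 are a larger share of the calls than of the genes. A gene that was not called may thus still differ by 1.5-fold, and a called gene may be a false call. Every pair of libraries in a group differed by more than sampling noise (chi-square divided by its degrees of freedom 12.3 or more). Positions and exon lengths are GENCODE M21 (GRCm38, the assembly of mm10), matched by symbol for all 51 members; promoters are RefSeq's. Members, lists and motifs were chosen with earlier results of these data known. Named in full were called members, those with an unadjusted p under 0.05, and the 3 highest per kilobase in each family.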

Additional observations from a re-analysis of the deposited data

How the results depend on the processing

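Over 13 alternative fits, 4 members were ever called: Adamts13 and Adamtsl2 as lower, and Adamts17 and Mmp28 as higher. The count of members that fell was 2 with every other tool, scaling, filter and covariate tried and 0 to 2 when a library was left out (0 without mutant replicate 1 or 2). The count that rose was 0, but 2 with DESeq2 and 1 with the replicate block, and 0 in each fit without a library. Adamts17 was the member that rose with the block (adjusted p = 0.0253). The deviations of same-numbered libraries had correlations of -0.015, 0.016 and 0.198 across genes for replicates 1, 2 and 3. Differently numbered libraries ranged from -0.17 to 0.135, so replicate 3 gave the highest value. The number was taken as a name and not a pairing, which these values do not settle for replicate 3. With the block 466 genes were called in all, against 488. That total was 747 with DESeq2 and 211 to 428 without a library, lowest without mutant replicate 2 and also reduced without control replicate 2 (293) or 3 (325). Related genes that rose were 1, and 3 with DESeq2 and 1 to 2 without a library. Adam12, Adam23, Pcsk5 and Smad4 kept their call and direction in all 13 fits. Members detected were 48, 44 at 10 or more reads in all and 40 at 1 CPM in 3 libraries. Log2 fold changes near 0 changed sign. Without a library, Mmp14 ranged from -0.055 to 0.099 (below 0 without replicate 2 of either group, -0.040 for control), Adamts1 from -0.26 to 0.086 (above 0 without control replicate 2, and 0.017 without mutant replicate 3) and Adamtsl3 from -0.29 to 0.18 (0.18 and 0.050 without control replicate 1 or 2, 0.043 without mutant replicate 1). Adamtsl3 was also above 0 with limma-voom (0.039) and the block (0.018). With 3 libraries a group, changes of low genes such as Adamts13 rest on few reads.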
